A study of Mus musculus with 2 samples.

Results

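The Mir322 cluster is a run of 7 microRNA hairpins on the X chromosome of the mouse, and its hairpins were chosen by their symbols among the 2202 hairpins of the GENCODE M21 annotation. The members are Mir322, Mir503, Mir351, Mir542, Mir450a-2, Mir450a-1 and Mir450b. The annotation spells 5 of them this way, and it lists Mir450a-1 and Mir450a-2 as Mir450-1 and Mir450-2. The reads come from heart tissue of 2 female B6CASTF1/J mice, the first-generation hybrid of C57BL/6J with CAST/EiJ, aged 25 days, and the labels name no treatment. They form 1 group, without a second condition, so nothing below contrasts conditions. Replicate 1 held 2050498 hairpin counts and replicate 2 held 2661090. The labels number the animals separately but give both the same donor identifier, and the SDs (n = 2) rest on their being 2 animals.

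A microRNA hairpin is a folded stretch of a longer transcript, from which the enzymes Drosha and Dicer cut a mature RNA from either arm. Bases 2 to 8 of the mature RNA, the seed, pair with target messenger RNAs and largely set which genes are repressed. Clustered hairpins can be cut from 1 shared primary transcript and still reach different mature levels. In background knowledge, miR-322 (miR-424 in humans) and miR-503 slow the cell cycle and promote differentiation of muscle precursors, and miR-322 has the seed of the miR-15 family. MiR-351 has the seed of the miR-125 family.

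The mature sequences of the main arms are shown because their seeds put the members into different families, with the seed in capitals and each written 5′ to 3′. They are from RefSeq (GRCm38.p6, the assembly also called mm10), minus strand of chromosome X.
miR-322-5p: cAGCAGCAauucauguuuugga
miR-503-5p: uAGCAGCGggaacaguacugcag
miR-351-5p: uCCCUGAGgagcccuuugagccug
miR-542-3p: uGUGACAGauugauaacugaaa
miR-450a-5p: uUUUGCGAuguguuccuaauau
miR-450b-5p: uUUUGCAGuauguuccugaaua

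RefSeq lists 14 mature arms for the 7 hairpins, with 13 distinct sequences and 12 distinct seeds. Positions are counted from 1 at the 5′ end, with the first-named microRNA's base written first. The first 8 bases of miR-322-5p and miR-503-5p differ by C1U and A8G, so their seeds differ only at the last base. Over 22 positions miR-450a-5p and miR-450b-5p were identical at 15, and the differences G7A and A8G fall in the seed. The hairpins Mir450a-1 and Mir450b share the seed of their 3p arms, and those arms differ at 2 of 22 positions, A19G and A20C.

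All 7 hairpins lie on the minus strand of chromosome X within 6353 nt (mm10). In 5′ to 3′ order Mir322 (ENSMUSG00000065418.1) comes first, from 53054255 to 53054349. Mir503 (ENSMUSG00000076122.1) follows after 200 nt, from 53053984 to 53054054, and Mir351 (ENSMUSG00000065503.1) after another 630 nt, from 53053255 to 53053353. The widest gap, 3767 nt, separates Mir351 from Mir542 (ENSMUSG00000076140.1), from 53049403 to 53049487. Mir450a-2 (ENSMUSG00000076399.1) lies from 53048299 to 53048367, Mir450a-1 (ENSMUSG00000065486.1) from 53048154 to 53048244 and Mir450b (ENSMUSG00000076050.1) from 53047997 to 53048078. These last 3 sit 54 and 75 nt apart. No other annotated gene overlaps a member, so the annotation gives them no exon, intron or UTR. The lincRNA Gm28730 lies in the wide gap on the same strand, and the transcript C430049B03Rik ends 696 nt upstream of Mir322.

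Together the 7 hairpins held 12616 counts in replicate 1 and 29031 in replicate 2. Replicate 1 thus gave the cluster 0.615% of its hairpin counts (95% Wilson interval 0.605 to 0.626). Replicate 2 gave it 1.09% (1.08 to 1.10), and the mean was 0.853% ± 0.336. Reads matching several places are left out of the hairpin counts, so these shares and the ranks below cover only the remaining reads. The level below is CPM, a hairpin's count per 1000000 hairpin counts. A read covers a whole mature RNA, so CPM was not divided by length, and the order of the 7 levels was the same per nt of hairpin in both libraries. All opposite-strand counts of the members were 0, and the column without regard to strand gave the same count for all 7. At least 10 counts in both libraries were found for 6 of the 7 members, against 13.1% of all 2202 hairpins.

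Mir322, the first hairpin, was the highest member in both hearts. It had 7536 counts (3675 CPM) in replicate 1 and 13588 counts (5106 CPM) in replicate 2, a mean of 4391 ± 1012 CPM. By counted reads it ranked 33 and 26 of all hairpins, and microRNAs with several loci may rank too low. Mir503, its neighbour and partner in cell cycle control, had 187 counts (91.2 CPM) and 239 counts (89.8 CPM), or 90.5 ± 0.979 CPM. Mir503 was thus 40.3-fold below Mir322 in replicate 1 and 56.9-fold below it in replicate 2, although only 200 nt separate the hairpins. It made up 2.42% of Mir322 plus Mir503 in replicate 1 (95% exact binomial interval 2.09 to 2.79), and the share in replicate 2 was 1.73% (1.52 to 1.96).

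Mir351, next along the cluster and the carrier of the miR-125 seed, had 3462 counts (1688 CPM) in replicate 1 and 13281 counts (4991 CPM) in replicate 2. Its mean was 3340 ± 2335 CPM, the widest spread of the members. Mir322 was 2.18-fold above Mir351 in replicate 1 and 1.02-fold above it in replicate 2, where their 95% Wilson intervals overlapped (5021 to 5193 CPM for Mir322 and 4907 to 5076 CPM for Mir351). Both hairpins were counted in the same 2 libraries, which are too few to show whether their means differ.

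Mir542, whose 3p arm is known to repress the survival gene Birc5, lay in the middle of the cluster and ranked 3 of 7 in level in both libraries. It had 1269 counts (619 CPM) and 1550 counts (582 CPM), or 601 ± 25.7 CPM. In replicate 1 it was 5.94-fold and in replicate 2 8.77-fold below Mir322. Both of its values lay below those of Mir351 and above those of Mir503.

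The 3 hairpins at the 3′ end were low, and Mir450b, the last, was the highest of them. Mir450b had 131 counts (63.9 CPM) and 313 counts (118 CPM), a mean of 90.8 ± 38.0 CPM. It therefore lay below Mir503 in replicate 1 and above it in replicate 2, and the 2 means could not be ordered. Mir450a-2 had 26 counts (12.7 CPM) and 55 counts (20.7 CPM), or 16.7 ± 5.65 CPM. Mir450a-1 had 5 counts in each library, 2.44 and 1.88 CPM, close to the floor of 3 counts (1.46 and 1.13 CPM). Mir450b supplied 80.9% of the counts of these 3 hairpins in replicate 1 and 83.9% in replicate 2.

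**Figure D1:**
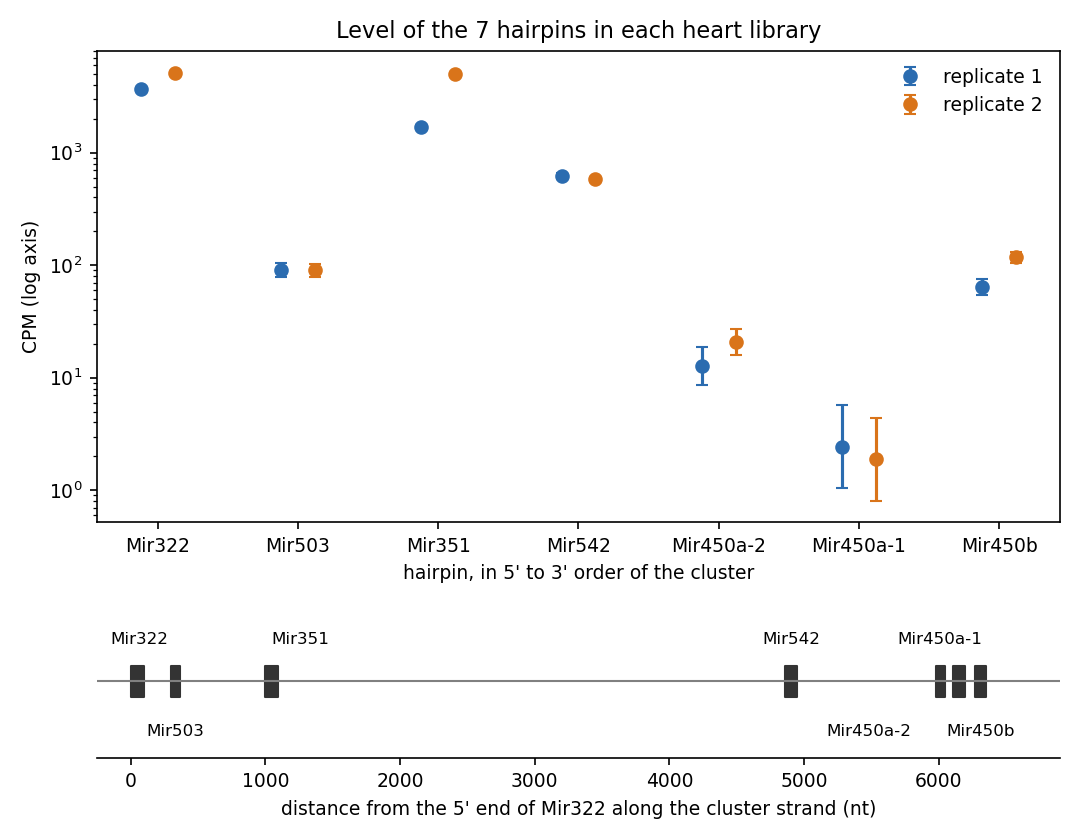
The upper panel plots the CPM (log axis) of each hairpin in 5′ to 3′ order, with points for the 2 libraries and 95% Wilson intervals that cover counting error only, and the lower panel draws the hairpins to scale by distance in nt from the 5′ end of Mir322. Mir322 and Mir351 stand highest, Mir503 between them lies near 90.5 CPM, and the 3′ group falls to 2.44 and 1.88 CPM at Mir450a-1 before Mir450b.

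Level therefore did not follow position step by step. Across the 7 hairpins, Spearman's rho between place in the cluster and CPM was -0.79 in replicate 1 and -0.61 in replicate 2. Those hairpins share a library and a locus and are not independent, so no p is given. From highest to lowest the members spanned 1507-fold in replicate 1 and 2718-fold in replicate 2, with only 5 counts behind the lowest.

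The counted reads of the cluster came almost wholly from 3 hairpins. Mir322, Mir351 and Mir542 made up 97.2% of the cluster in replicate 1 and 97.9% in replicate 2. Mir322 took 59.7% (95% exact interval 58.9 to 60.6) in replicate 1 and 46.8% (46.2 to 47.4) in replicate 2, while Mir351 took 27.4% (26.7 to 28.2) and 45.7% (45.2 to 46.3). The share of Mir542 was 10.1% in replicate 1 and 5.34% in replicate 2. These shares do not depend on the library total, and the make-up of the cluster differed between the libraries by more than counting error.

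The low values of the miR-450a hairpins are counts of reads that could be placed. The hairpins are shown because both contain the whole of miR-450a-5p; the longest stretch they share, 25 nt, is in capitals.
Mir450a-1: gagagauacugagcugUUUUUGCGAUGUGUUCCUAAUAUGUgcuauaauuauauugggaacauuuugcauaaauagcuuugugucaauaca
Mir450a-2: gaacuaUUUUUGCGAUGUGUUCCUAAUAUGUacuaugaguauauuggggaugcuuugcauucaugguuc

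The 22 bases of miR-450a-5p occur in both loci, and the tables list reads matching several places separately from the hairpins. Such reads numbered 1925044 (38.5% of reads) in replicate 1 and 2686901 (41.6%) in replicate 2. How many of them were miR-450a-5p was not tested, so the levels of Mir450a-1 and Mir450a-2 cannot show how abundant miR-450a was. The next longest stretch was 19 nt, between Mir450a-1 and Mir450b, and miR-450a-1-3p and miR-450b-3p share 18 nt in a row. The 8 mature arms of Mir322, Mir503, Mir351 and Mir542 shared at most 11 nt in a row with any RefSeq hairpin outside the cluster.

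The hairpins also fell apart in base composition. GC content was 51.6% in Mir322, 54.9% in Mir503 and 51.8% in Mir542, against 36.2% in Mir450a-2, 33.0% in Mir450a-1 and 30.5% in Mir450b. The predicted folding energy was -42.9 kcal/mol for Mir322 and -41.0 kcal/mol for Mir450a-1, the members with the highest and the lowest counts. It was -37.6 for Mir503, -38.1 for Mir542, -31.8 for Mir450b and -26.5 kcal/mol for Mir450a-2. Mir351 is not among these, as RefSeq's table gave 6 of the 7 hairpins.

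The highest members share their seeds with other hairpins of the heart. Seeds were compared among the microRNAs of RefSeq's table, which matched 972 of the 2202 hairpins, so other partners may be missed. The seed of miR-322-5p occurs in 10 other hairpins, of which 6 reached 10 counts in each library and 4 stood at 0. The seed of miR-351-5p occurs in 5 others, of which 3 reached 10 counts in each library. The mature RNAs of the most abundant seed partners are printed to compare with miR-322-5p and miR-351-5p above. They match in the seed in capitals and differ after it.
miR-195a-5p: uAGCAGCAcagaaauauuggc
miR-15b-5p: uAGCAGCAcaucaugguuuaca
miR-125a-5p: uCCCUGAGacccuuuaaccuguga
miR-125b-5p: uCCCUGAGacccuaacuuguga

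The levels in the seed groups are those of whole hairpins, since mature arms are not separated. They cannot give the level of the arm that carries the seed. By these counts, Mir322 ranked 3 of 11 in its seed group in replicate 1 and led it in replicate 2. The group held 19123 CPM in replicate 1, of which Mir322 made up 19.2% (95% exact interval 18.8 to 19.6). In replicate 2 the group held 8602 CPM and Mir322 made up 59.4% (58.7 to 60.0). The partners of Mir322 summed to 15448 CPM in replicate 1 and to 3496 CPM in replicate 2, while Mir322 itself was at 3675 and 5106 CPM. Among them Mir195a had 6913 and 858 CPM, Mir15b 4643 and 1430 CPM, Mir15a 1783 and 356 CPM, Mir497 976 and 508 CPM, Mir16-1 923 and 294 CPM, and Mir16-2 430 and 133 counts. MiR-16-5p comes from both Mir16 loci, so reads that match both may be absent from those values. With a seed of bases 2 to 7, Mir503 joined the group and the members' share was 19.6% and 59.8%.

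Mir351 ranked 2 of 6 in its own seed group in both libraries, behind Mir125a, again by counts of whole hairpins. The group held 15433 CPM in replicate 1 and 11498 CPM in replicate 2. Mir351 made up 10.9% of it (95% exact interval 10.6 to 11.3) in replicate 1 and 43.4% (42.8 to 44.0) in replicate 2. Mir125a had 13118 and 6164 CPM, Mir125b-1 436 and 183 CPM, and Mir125b-2 190 and 160 CPM. MiR-125b-5p comes from both Mir125b loci, with the same limit as for miR-16-5p. The other members had next to no such partners in RefSeq's table. There, miR-503-5p, miR-542-3p, miR-450b-5p and miR-450a-5p shared their seeds with 0 hairpins outside the cluster. MiR-542-5p shared its seed with Mir6966, at 2 and 3 counts, and the 3p arms of Mir450a-1 and Mir450b shared theirs with Mir6352, at 0. Of all 1679 mature microRNAs in RefSeq's table, 27.9% share a seed with another.

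**Figure D2:**
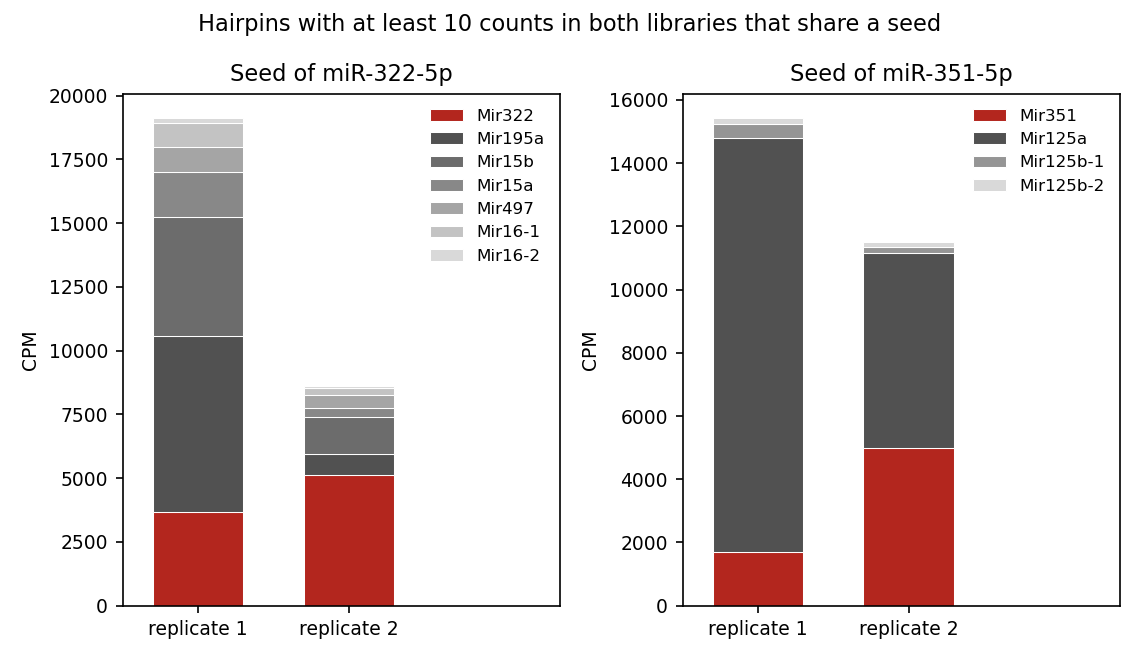
Stacked bars give the CPM of each hairpin with the seed of miR-322-5p (left) or of miR-351-5p (right) in the 2 libraries, for hairpins with at least 10 counts in both, with the cluster's member in red. The red part is 3675 and 5106 CPM for Mir322 and 1688 and 4991 CPM for Mir351, while the grey parts are smaller in replicate 2. Bars count whole hairpins, with mature arms not separated.

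The libraries of the 2 hearts were compared hairpin by hairpin to see how far the members varied. An exact two-sided binomial test of the 2 counts was used, after scaling by trimmed mean of M values (TMM) and with Benjamini-Hochberg adjustment over 326 hairpins. It compares these libraries and not conditions, since it holds counting error only. Across all tested hairpins 62.6% were called at an adjusted p under 0.05, 36.2% higher and 26.4% lower in replicate 2. Mir450a-1 had too few counts to enter. Of the 6 members tested, 5 were called, all of them higher in replicate 2. Under scaling by total count 3 were called, all higher, and the calls over all hairpins turned from 118 higher and 86 lower to 76 higher and 117 lower. That scaling moved the median log2 ratio of all hairpins by -0.23.

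Mir351 had the largest difference of the members, with a log2 ratio of replicate 2 over replicate 1 of 1.79 on TMM-scaled CPM + 1. Its 95% counting interval was 1.74 to 1.85. This and the intervals below are of the scaled counts without the added 1, so they differ slightly in scale from the ratios. Of the 326 hairpins, 13 had a higher ratio than Mir351. Its ratio was 1.56 under scaling by total count. Mir450b followed with 1.10 (0.81 to 1.42, adjusted exact binomial p = 5.48e-14), and Mir322 had 0.70 (0.66 to 0.75, adjusted exact binomial p = 5.68e-262). These 3 were called under every scaling tried. Mir450a-2 had 0.88 (0.24 to 1.67, adjusted exact binomial p = 0.0130), and p was 0.0702 under scaling by total count.

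Mir542 and Mir503 had the smallest ratios of the tested members. Mir542 had a log2 ratio of 0.14 (0.03 to 0.25, adjusted exact binomial p = 0.0165), or -0.09 (p = 0.160) under scaling by total count. Its call was also lost with DESeq2 size factors (adjusted exact binomial p = 0.308), with the 10 highest hairpins left out of the scaling (p = 0.690) and with a minimum of 50 counts (p = 0.706) or of 1 count (p = 0.740). Mir503 had 0.21 (-0.07 to 0.49, adjusted exact binomial p = 0.203) and -0.02 under that scaling. The median of the 6 tested members was 0.79, and that of all tested hairpins was 0.09 with a central span from -0.53 to 0.57 between quartiles. The biological coefficient of variation over all tested hairpins was 0.467. It is the spread between the libraries beyond counting error, in which animals and library preparation cannot be told apart. In 236 of the 326 hairpins the log2 ratio lay within 1 of zero, and of the tested members this held for Mir322, Mir503, Mir542 and Mir450a-2.

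**Figure D3:**
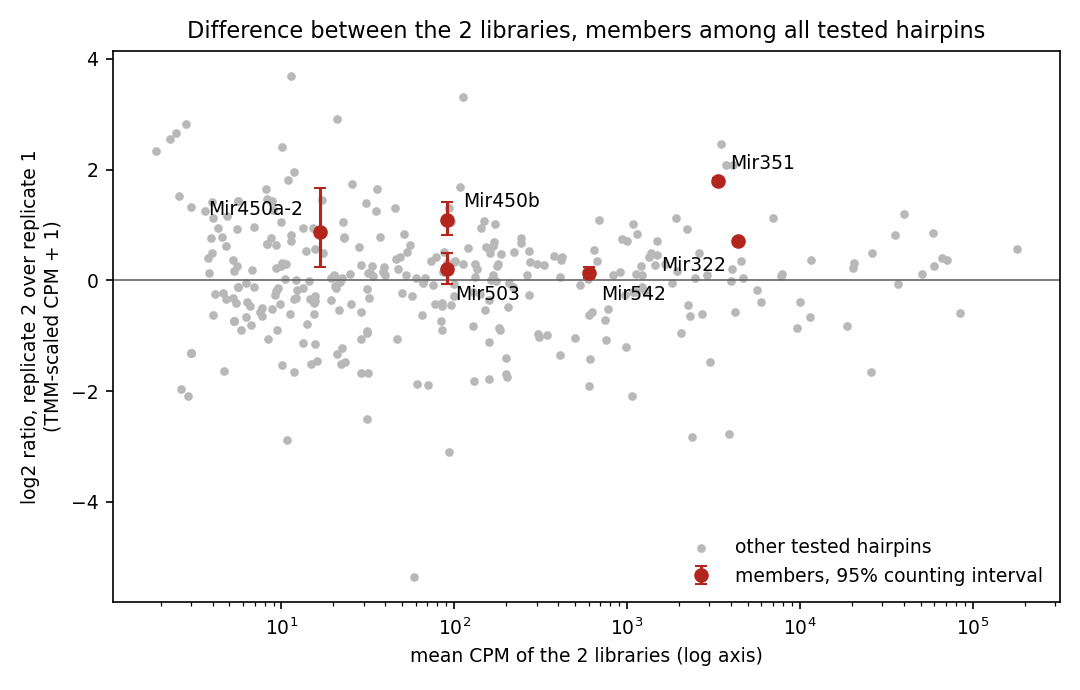
Each point is 1 of the 326 tested hairpins, with mean CPM on a log x axis and the log2 ratio of replicate 2 over replicate 1 on the y axis. The 6 tested members are red with 95% counting intervals, which leave out the 1 CPM added for the ratio. Mir351 at 1.79 and Mir450b at 1.10 stand above the bulk of hairpins of their level, while Mir542 at 0.14 and Mir503 at 0.21 lie near zero.

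Summed levels of microRNAs known from cell types of the heart and of other tissues are given beside these ratios, and their part in the ratios was not tested. Some lists hold several loci of the same microRNA, such as Mir1a-1 with Mir1a-2 and Mir133a-1 with Mir133a-2. Reads that match several loci may be absent from their sums, so the sums cannot rank the cell types. Heart muscle hairpins (8 listed, 4 with at least 10 counts in both libraries) summed to 4496 CPM in replicate 1 and 8311 CPM in replicate 2. Mir208a alone accounted for the higher sum, with 1620 and 5862 CPM, and the other 7 summed to 2876 and 2450 CPM, led by Mir499 (2629 and 2317 CPM). The 2 smooth muscle hairpins summed to 29354 and 48287 CPM, endothelial Mir126a stood at 108082 and 60950 CPM, and the 5 fibroblast hairpins summed to 6244 and 2424 CPM. Mir214 made up that drop, with 4251 and 508 CPM, since the other fibroblast hairpins summed to 1993 and 1916 CPM. Those of erythroid cells were at 1783 and 869 CPM and those of epithelium at 404 and 370.1 CPM. The epithelial hairpins did not move together. Their log2 ratios were -5.36 for Mir205, -1.47 for Mir200b and -0.19 for Mir141, against 1.69 for Mir203, 0.67 for Mir429 and 0.26 for Mir200c. Without Mir205 they summed to 288 and 369 CPM. Leukocyte hairpins summed to 4647 and 4648 CPM, but Mir155 had a log2 ratio of -0.64 and Mir150, Mir142 and Mir223 had 1.13, 0.76 and 1.03. Of 5 matched neuronal hairpins, 4 were at 0 in both libraries. These 5 are Mir124a-1, Mir124a-3, Mir9-1, Mir9-2 and Mir9-3, all from microRNAs with several loci. Reads that match several loci are not counted, so these zeros cannot show that the microRNAs were absent. The liver microRNA Mir122 was at 22.9 and 203 CPM. In whole tissue, fewer cells of a type and less RNA per cell cannot be told apart.

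The cluster was a large part of what was counted from the X chromosome. X-linked hairpins, 142 in all and 29 with at least 10 counts in both libraries, held 2.59% and 3.11% of hairpin counts. The 7 members supplied 23.7% of these (95% Wilson interval 23.4 to 24.1) in replicate 1 and 35.1% (34.8 to 35.5) in replicate 2. By mean, Mir322 ranked 3 and Mir351 ranked 4 among X-linked hairpins, after Mir652 (7888 ± 436 CPM) and Mirlet7f-2 (4693 ± 431 CPM). In replicate 2, Mir322 and Mir351 (5106 and 4991 CPM) both lay above Mirlet7f-2 (4388 CPM). Mirlet7f-1 is another locus of let-7f, so reads that match both loci may be absent from Mirlet7f-2 and from the X-linked total. The order against Mirlet7f-2 is thus one of counted reads only. Mir542 ranked 10.

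Other clusters were built from the annotation as hairpins on 1 strand with gaps of at most 10 kb, keeping those with at least 3 hairpins of 10 counts in both libraries. Among these 11 clusters the Mir322 cluster ranked 5 by mean CPM. Its top hairpin took a smaller mean share of counts (53.3%) than the top hairpin of 8 of the 10 others. Reads that match several loci are left out. Some of the other clusters hold microRNAs with several loci, such as Mir24-1, Mir24-2, Mirlet7f-1 and Mirlet7a-1. Their top shares may therefore be too high, and the shares cannot rank how even the clusters were. The miR-17-92 cluster, whose 6 hairpins on chromosome 14 promote cell growth, had 3874 and 3481.7 CPM, and its highest hairpin, Mir92-1, took 51.2% and 47.3%. The Clcn5 cluster on the X chromosome, with 5 of 6 listed hairpins matched, had 1196 and 1494 CPM, of which Mir532 took 64.6% and 74.0%. The miR-106b-25 cluster had 5441 and 4633 CPM, of which Mir93 took 74.6% and 86.4%. The X-linked miR-106a-363 cluster had few counted reads, with 88.3 and 84.2 CPM for its highest hairpin, Mir92-2. Mir92-1 and Mir92-2 are loci of the same microRNA, as are Mir19b-1 and Mir19b-2. Reads that match both loci may be absent from this cluster and from miR-17-92, so their levels may be too low. No test of these shares was made, as they are a description of 2 libraries.

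**Figure D4:**
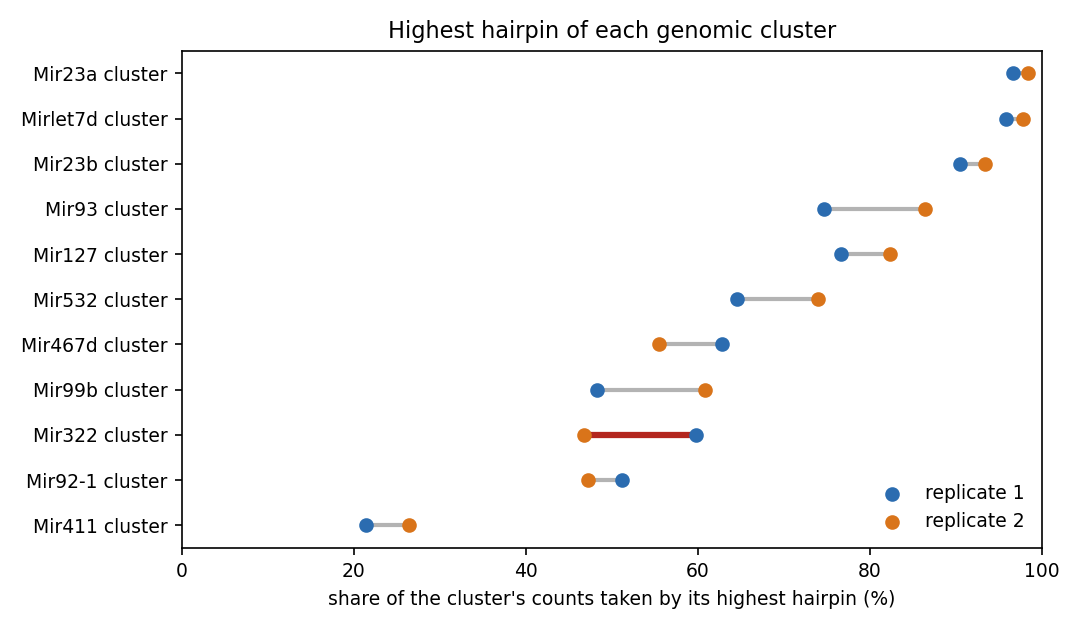
For each of the 11 genomic clusters, named by its highest hairpin, points give the percent of the cluster's counts that this hairpin took in the 2 libraries, joined by a line (red for the Mir322 cluster). Mir322 took 59.7% in replicate 1 and 46.8% in replicate 2, and 8 clusters had a larger mean share. Reads that match several loci are left out of these shares.

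The hairpins nearest to each member in level were found by the distance between log2(CPM + 1) values in the 2 libraries, among 288 hairpins with at least 10 counts in both. With only 2 libraries this likeness is weak and says that levels match, no more. Nearest to Mir322 were Mir151 (4369 and 4768 CPM) and Mir93 (4060 and 4002 CPM). Nearest to Mir351 were the heart muscle hairpin Mir208a (1620 and 5862 CPM) and Mir140 (1766 and 6397 CPM). Mir542 was nearest to Mir20a and Mir425, and Mir503 to Mir409 and Mir92-2. Mir450b was nearest to Mir547 and Mir204, and Mir450a-2 to Mir137 and Mir493.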

How the data were processed

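Small RNA libraries of 2 heart samples, 1 group, were used. The authors deposited whole-number counts for each hairpin, without normalization: either strand, the hairpin's strand (used here) and the opposite strand. The build was mm10 with GENCODE M21, per the file headers of the deposited notes; the aligner and counter are not given in the sources used here. Rows of unassigned reads, 59.0% and 58.8% of the libraries, stayed out of totals, and mature arms are not separated.

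CPM used the sum over all hairpins. TMM factors and the dispersion came from edgeR 4.0.16 (R 4.3.3), and DESeq2 1.42.0 gave alternative size factors. Tests used scipy 1.17.1 with counts of at least 10 in at least 1 library, and they were tested on simulated data. The simulated counts held counting error only, so they cannot show how the tests behave under the spread between libraries. Folding used ViennaRNA 2.7.2. Intervals and floors cover counting error only, since PCR copies were not told apart. Of 2202 hairpins, RefSeq's table matched 972. Named hairpins were the 7 members, their seed partners, the miR-15 and miR-125 families, the 2 nearest in level to each member and the highest of 4 fixed clusters. Other hairpins were named after their values were seen. Members, lists and tests were chosen with earlier results of these data known.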

Additional observations from a re-analysis of the deposited data

Results flagged for a closer look

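Reads matching several places lie outside the hairpin counts. They numbered 1925044 in replicate 1 and 2686901 in replicate 2, above the floor of 3 counts. No group held the 4 samples that a search for outlying samples needs.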

How the results depend on the processing

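Within each library the order of the 7 levels was the same per nt of hairpin, an alternative chosen after seeing the data. The count of 6 members with at least 10 counts in both libraries was 7 with a minimum of 5 and 5 with a minimum of 50. The share of Mir322 within the cluster ranged from 46.8% to 59.7%, and that of Mir322 plus Mir351 from 87.2% to 92.6%, when a replicate was left out. The other alternatives for these shares could hardly move them, since member counts were equal without regard to strand and Mir450a-1 and Mir450a-2 held few counts. The cluster's share of counts, 0.853% by mean, was 1.20% in the column without regard to strand. There the members' counts were the same and the hairpin total was smaller. The share was 2.81% of a total without the 10 highest hairpins and 0.351% of all reads. It ranged from 0.615% to 1.09% when a replicate was left out. Members called between the libraries numbered 5 of 6, against 62.6% of all tested hairpins. Scaling by total count called 3 of 6 (59.2% of all hairpins), and a minimum of 1 count called 3 of 7 (27.3%). With DESeq2 size factors 4 members were called (58.3% of all hairpins). Leaving the 10 highest hairpins out of the scaling also gave 4 (59.2%), as did a minimum of 50 counts (74%). In the column without regard to strand 5 members were called (60.3%). All calls of members were higher in replicate 2. Scaling by total count reversed the log2 ratio of Mir503 (-0.0218) and of Mir542 (-0.0873), and a minimum of 50 counts reversed that of Mir542 (-0.0253). The counts of these hairpins stayed the same, and only the scaling between the libraries changed. Why the scalings differ was not tested. No paired analysis was possible because the samples form 1 group. Depth limits Mir450a-1, with 5 counts in each library.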
